A study of Drosophila melanogaster with 6 samples.

Results

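The genes described here encode 9 receptors for amines, peptides, GABA, acetylcholine and insulin, and 1 peptide precursor, in Drosophila melanogaster. They were grouped as genes that may modulate the output of olfactory neurons. The 10 genes were chosen by symbol: sNPF, sNPF-R, TkR99D, GABA-B-R1, GABA-B-R2, 5-HT1A, 5-HT1B, Oamb, mAChR-A and InR. All 10 were found among the 17698 gene rows of each library, and 9 of them passed the filter on low counts. One of the 10, sNPF, encodes a ligand and not a receptor.

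RNA was sequenced from whole antennae of female flies in 6 libraries, each pooled from the antennae of about 350 animals. The 3 control libraries came from flies of genotype peb-Gal4/+;Or49a-GFP/+. The 3 libraries with programmed cell death (PCD) blocked came from flies of genotype peb-Gal4/+;Or49a-GFP/UAS-p35, in which the driver expresses p35, a baculoviral caspase inhibitor. Both groups thus carried the peb-Gal4 driver, which is widely used for olfactory sensory neurons, and a GFP reporter for Or49a, and all flies were kept at one temperature on one diet. The libraries form 3 sample pairs of 1 control and 1 PCD-blocked library, and the age of the flies is not given in the sources used here.

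Olfactory sensory neurons have their cell bodies in the antenna and send axons to the antennal lobe of the brain, where modulators act on the axon terminals and change how much transmitter is released. GABA-B receptors on the terminals lower release, as does the tachykinin receptor, and short neuropeptide F (sNPF) released by the same neurons raises it through its receptor in hungry flies. Insulin receptor signalling in these neurons lowers the level of the sNPF receptor in fed flies. The transcripts for such receptors are made in the cell bodies and so can be measured in the antenna, but whole-antenna RNA also holds transcripts of support cells, glia and epidermis.

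Gene counts ran from 15588725 to 17808516 per library, and 3 counts in a library corresponded to 0.168 to 0.192 CPM, the count relative to 1000000 gene counts. The levels below use library totals scaled by the TMM method. The 8 neuronal markers checked were present in all libraries and summed to 6854 to 7029 CPM in controls and 7220 to 7353 CPM in PCD-blocked libraries, a rise of 4.84% in the mean. Of these markers Ir25a rose and Ir8a fell, and the other 6, elav, nSyb, Syt1, brp, nrv3 and Orco, did not pass. Ir8a was not called without pair 2 or pair 3, without the block or with DESeq2. The 6 glial markers summed to 3792 to 3846 CPM in controls and 3224 to 3363 CPM in PCD-blocked libraries, of which Gs2 made up the largest share and fell, while repo rose. Haemocyte markers summed to 26.3 to 34.5 CPM and 35.5 to 56.9 CPM, fat body markers to 44.9 to 177 CPM and 68.6 to 80.3 CPM, and muscle markers to 3.70 to 26.2 CPM and 1.27 to 33.5 CPM, in controls and PCD-blocked libraries respectively. Within these lists the haemocyte marker Pxn rose by 1.29 on the log2 scale. The other 4 haemocyte markers, Hml (0.20), eater (0.79), Sr-CI (0.52) and NimC1 (-0.11), did not pass. In the fat body list the lipoprotein gene apolpp rose by 1.44, while the yolk protein genes Yp2 and Yp3 fell by 1.59 and 2.04. The yolk protein falls were 0.87 and 1.19 without pair 1 and did not pass there (edgeR adjusted p = 0.0506 and 0.0769), without pair 2 (0.0864 and 0.0988) or with DESeq2 (0.121 and 0.0960). The 6 markers of brain and other head tissue summed to 55.9 to 63.9 CPM in controls and 56.8 to 58.6 CPM in PCD-blocked libraries, nearly all of it from dati, at 60.5 and 57.2 CPM in the means. Of the rest, Pdf had no count in any library, and the photoreceptor genes ninaE, Rh3 and Rh4 were each under 0.14 CPM in both groups. The part of these shifts in the results below was not tested. In whole-antenna RNA, more cells of a type and more RNA per cell cannot be told apart.

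With cell death blocked, 5-HT1A transcripts rose about 2.10-fold and GABA-B-R2 transcripts 1.28-fold, in calls made under every alternative setting tried. GABA-B-R1 and InR rose slightly and sNPF fell slightly, in calls lost under 4, 4 and 5 of the 10 alternative settings. Of the 9 tested genes, 4 were higher and 1 was lower when cell death was blocked (quasi-likelihood test of edgeR with the pair as a block, Benjamini-Hochberg adjusted p under 0.05 over all 9181 tested genes). In the same comparison 27.7% of all tested genes were called, 14.3% higher and 13.3% lower. Of the 9 tested genes 8 differed by less than 1.5-fold. Their median log2 fold change was 0.11, against 0.0008 over all tested genes. In 3 of the 9, GABA-B-R1, GABA-B-R2 and 5-HT1A, every PCD-blocked library lay above every control library, which held for 19.9% of all tested genes.

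**Figure D1:**
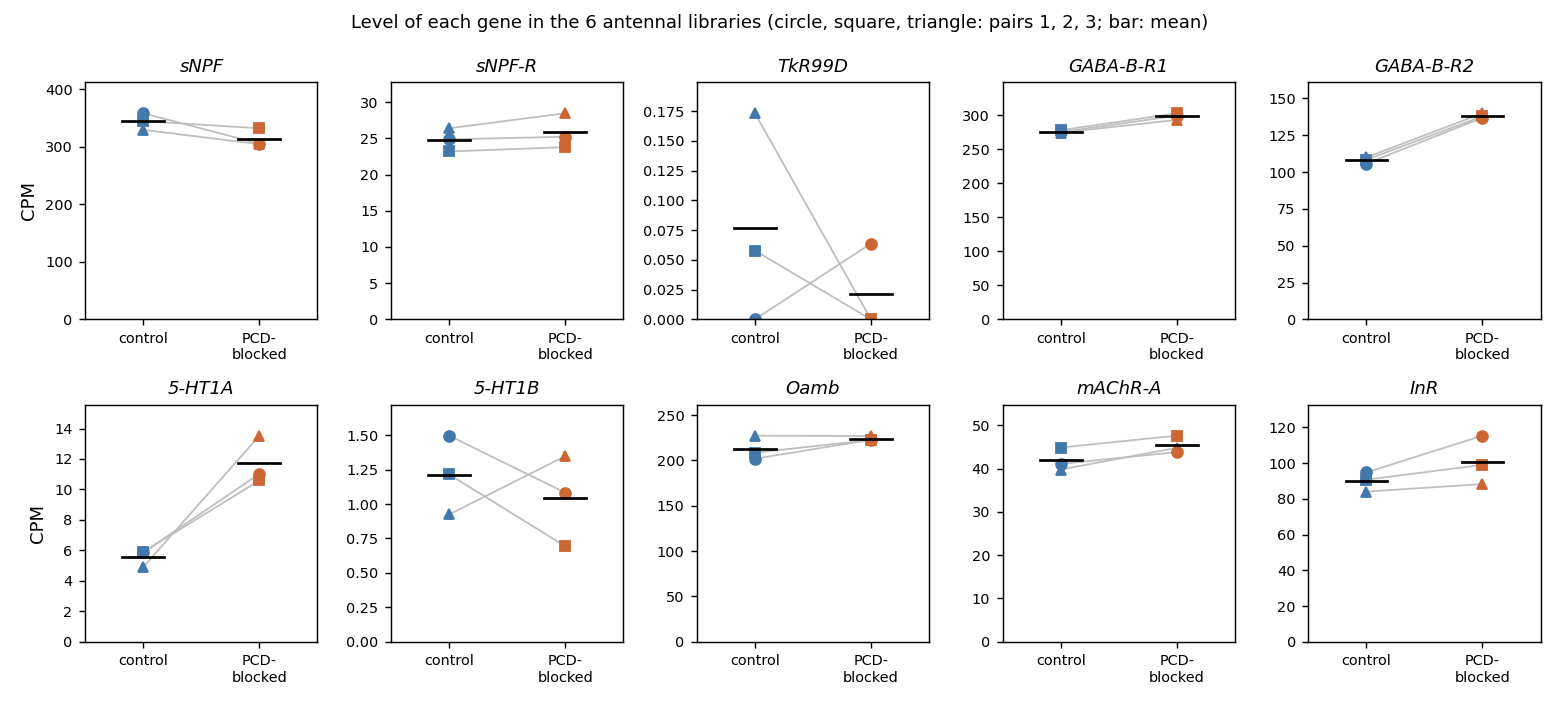
Level of each gene (CPM, y axis from 0) in control libraries (blue) and PCD-blocked libraries (orange), with lines joining the libraries of a pair and bars at group means. The groups are apart for GABA-B-R1, GABA-B-R2 and 5-HT1A and overlap for the other 7 genes, and TkR99D is at or below 0.173 CPM throughout.

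Levels were compared between genes per kilobase (kb) of annotated exon, which adjusts for length but not for which of the annotated exons were expressed. In controls sNPF was the most abundant at 141 CPM per kb, above 94.6% of tested genes. GABA-B-R1 followed with 48.9, Oamb with 38.4 and GABA-B-R2 with 27.1 CPM per kb. InR had 7.91 and mAChR-A 7.73 CPM per kb, and these neighbours overlapped, with ranges of 7.40 to 8.34 and 7.34 to 8.27. They were followed by sNPF-R at 5.23, 5-HT1A at 1.11, 5-HT1B at 0.301 and TkR99D at 0.0267 CPM per kb. The order of means was the same in PCD-blocked antennae, where InR and mAChR-A again were the neighbours whose libraries overlapped. The peptide precursor was 26.9 times as abundant per kb as its receptor in controls.

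**Figure D2:**
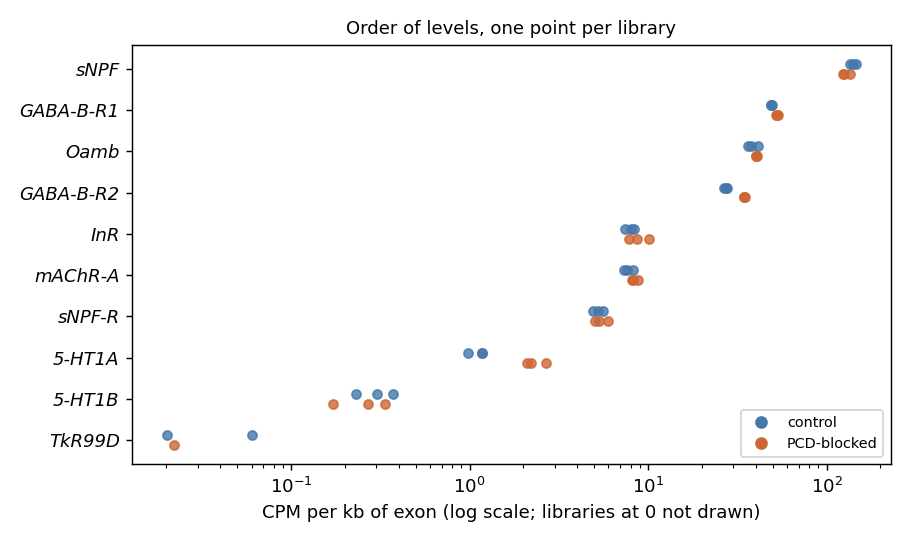
Level per kb of exon (log scale) for each gene, one point per library, controls in blue and PCD-blocked in orange. The genes span from 141 CPM per kb for sNPF to 0.0267 for TkR99D in controls, and InR and mAChR-A overlap in both groups.

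The peptide system is headed by sNPF (FBgn0032840, chromosome 2L, 20027915 to 20056373), which encodes the precursor of the short neuropeptide F peptides. Its level was 358, 344 and 329 CPM in control libraries 1, 2 and 3 and 305, 332 and 304 CPM in PCD-blocked libraries 1, 2 and 3. PCD-blocked library 2 lay within the control range, and the other PCD-blocked libraries lay below it. The group means were 344 ± 14.4 and 314 ± 15.7 CPM (SD, n = 3), and sNPF was lower in each pair, with a log2 fold change of -0.13 ± 0.04 (SE, edgeR adjusted p = 0.0375). This call was lost with any pair left out (adjusted p = 0.125, 0.0695 and 0.0940 without pairs 1, 2 and 3), without the pair as a block (0.0856) and with DESeq2 (0.0630). Without pair 1 the log2 fold change was -0.09.

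Its receptor gene sNPF-R (FBgn0036934, chromosome 3L, 20058511 to 20089007) encodes a G protein-coupled receptor. It had 24.9, 23.2 and 26.4 CPM in controls and 25.2, 23.8 and 28.5 CPM in PCD-blocked libraries. The groups overlapped, and the log2 fold change of 0.06 had a 95% interval of -0.07 to 0.19 (edgeR adjusted p = 0.515). A rise of more than 1.14-fold or a fall below 0.950-fold lies outside that interval.

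TkR99D (FBgn0004622, chromosome 3R, 29950796 to 29969447), the receptor for tachykinins, was barely detected. It had 4 counts over the control libraries and 1 over the PCD-blocked libraries, at most 3 in any library, and was left out of the test by the filter. No change could be measured at this depth. TkR86C, a neuropeptide receptor gene of similar name, was present at 35.9 ± 1.59 CPM in controls and rose to 49.8 ± 2.43 CPM (log2 fold change 0.47, edgeR adjusted p = 0.000473). The tachykinin precursor gene Tk had no count in any library, which allows at most 3 counts per library, or 0.168 to 0.192 CPM.

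The metabotropic GABA receptor works as a dimer of a GABA-binding subunit, encoded by GABA-B-R1, and a partner that couples to G proteins, encoded by GABA-B-R2. GABA-B-R2 (FBgn0027575, chromosome 3R, 21770333 to 21775840) had 106, 108 and 110 CPM in controls and 137, 138 and 140 CPM in PCD-blocked libraries. The lowest PCD-blocked library was well above the highest control. The difference was almost the same in the 3 pairs, 0.37, 0.35 and 0.35 on the log2 scale, and the fitted change was 1.28-fold with a 95% interval of 1.22 to 1.35 (log2 change 0.36, SE 0.03, edgeR adjusted p = 8.31e-05). Of the 9 tested genes it had the smallest p, and the call was made under every alternative tried (adjusted p of 3.12e-06 to 0.00323).

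GABA-B-R1 (FBgn0260446, chromosome 2L, 15016331 to 15034704) had 275, 278 and 274 CPM in controls and 299, 303 and 293 CPM in PCD-blocked libraries. The groups did not overlap, but the gap was small: the fitted change was 1.08-fold (log2 change 0.11, SE 0.03, edgeR adjusted p = 0.0255). The call was lost with any pair left out (adjusted p = 0.0640, 0.170 and 0.0753 without pairs 1, 2 and 3) and with DESeq2 (0.145). The rise was 8.22%, and the sum of the neuronal markers rose by 4.84%. That sum includes Ir25a, which rose from 421 to 576 CPM in the means, and Ir8a, which fell from 274 to 254 CPM. The other 6 markers did not pass, and whether the rises of GABA-B-R1 and of the sum are linked was not tested.

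The balance of the subunits does not depend on how libraries are scaled, and was computed after their values were seen. GABA-B-R2 CPM over GABA-B-R1 CPM, both per kb of exon, was 0.543, 0.552 and 0.567 in controls and 0.646, 0.644 and 0.675 in PCD-blocked libraries. Every PCD-blocked ratio was above every control ratio, with means of 0.554 ± 0.0119 and 0.655 ± 0.0172 (SD, n = 3). An exact two-sided permutation test over the libraries, without regard to pairs, gave p = 0.1, the smallest value that 3 against 3 libraries can give. It could therefore not have passed 0.05.

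Serotonin acts through receptors of several classes, of which 5-HT1A and 5-HT1B couple to inhibitory G proteins. 5-HT1A (FBgn0004168, chromosome 2R, 19067155 to 19121958) had 5.87, 5.90 and 4.91 CPM in controls and 11, 10.6 and 13.5 CPM in PCD-blocked libraries, from 85 to 241 counts per library. The groups were well apart, and PCD-blocked library 3 was the highest. The means were 5.56 ± 0.563 and 11.7 ± 1.59 CPM (SD, n = 3), a 2.10-fold rise with a 95% interval of 1.70 to 2.60 (log2 change 1.07, SE 0.14, edgeR adjusted p = 0.000517). The differences within pairs were 0.90, 0.83 and 1.44, and the call was made under every alternative tried.

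5-HT1B (FBgn0263116, chromosome 2R, 19022325 to 19032642), a neighbour of 5-HT1A on the chromosome, was scarce. It had 12 to 26 counts per library, or 1.5, 1.21 and 0.924 CPM in controls and 1.08, 0.694 and 1.35 CPM in PCD-blocked libraries. The groups overlapped, and the pairs differed in direction. The log2 fold change of -0.22 had a 95% interval of -0.98 to 0.54 (edgeR adjusted p = 0.676), so neither a fall to 0.505-fold nor a rise of 1.46-fold lies outside it, and without pair 2 the value was 0.03. At this depth a change of the size seen in 5-HT1A would lie outside the interval. Per kb, 5-HT1A was 3.68 times as abundant as 5-HT1B in controls and 9.02 times in PCD-blocked antennae. Whether the changes of these receptor genes differ was not tested.

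Oamb (FBgn0024944, chromosome 3R, 20689018 to 20714577) encodes an octopamine receptor that raises intracellular calcium. It had 202, 209 and 227 CPM in controls and 223, 223 and 227 CPM in PCD-blocked libraries. PCD-blocked libraries were close together and within the control range, and control 3 was as high as they were. The log2 fold change was 0.08 ± 0.04 (SE) and did not pass (edgeR adjusted p = 0.168).

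mAChR-A (FBgn0000037, chromosome 2R, 24378630 to 24390294) encodes a muscarinic acetylcholine receptor. Its level was 41.1, 44.9 and 39.8 CPM in controls and 43.8, 47.6 and 44.8 CPM in PCD-blocked libraries. It was higher in each pair, but the groups overlapped, and the log2 fold change of 0.12 ± 0.05 (SE) did not pass (edgeR adjusted p = 0.0998). It shares 111 exon bases with CG13578 on the opposite strand, which rose from 117 ± 5.79 to 211 ± 0.427 CPM. Whether counting used strand is not given in the sources used here, so reads over the shared bases cannot be assigned with certainty. None of the other 9 genes shares exon bases with another annotated gene.

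InR (FBgn0283499, chromosome 3R, 21570248 to 21619321) encodes the insulin receptor, a tyrosine kinase found in most fly tissues. It had 94.8, 90.8 and 84.1 CPM in controls and 115, 99.1 and 88.3 CPM in PCD-blocked libraries. The groups overlapped, since PCD-blocked library 3 lay within the control range, but InR was higher within each pair, by 0.28, 0.13 and 0.07 on the log2 scale. The call (log2 change 0.16, SE 0.05, edgeR adjusted p = 0.0276) rests on that pairing: without the pair as a block the adjusted p was 0.218. It was also lost without pair 1 (adjusted p = 0.152), where the log2 fold change was 0.09, without pair 2 (0.10) and with DESeq2 (0.228).

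**Figure D3:**
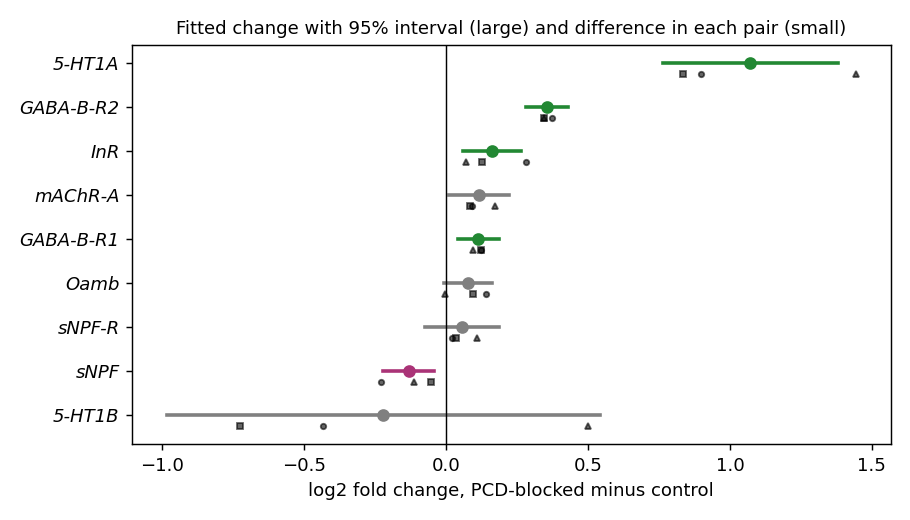
Fitted log2 fold change, PCD-blocked minus control, for the 9 tested genes (large points) with 95% intervals, and the log2 difference within each pair (small points: circle, square and triangle for pairs 1, 2 and 3). 5-HT1A at 1.07 and GABA-B-R2 at 0.36 stand to the right, the interval of 5-HT1B runs from -0.98 to 0.54, and the other genes lie between -0.13 and 0.16.

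**Figure D4:**
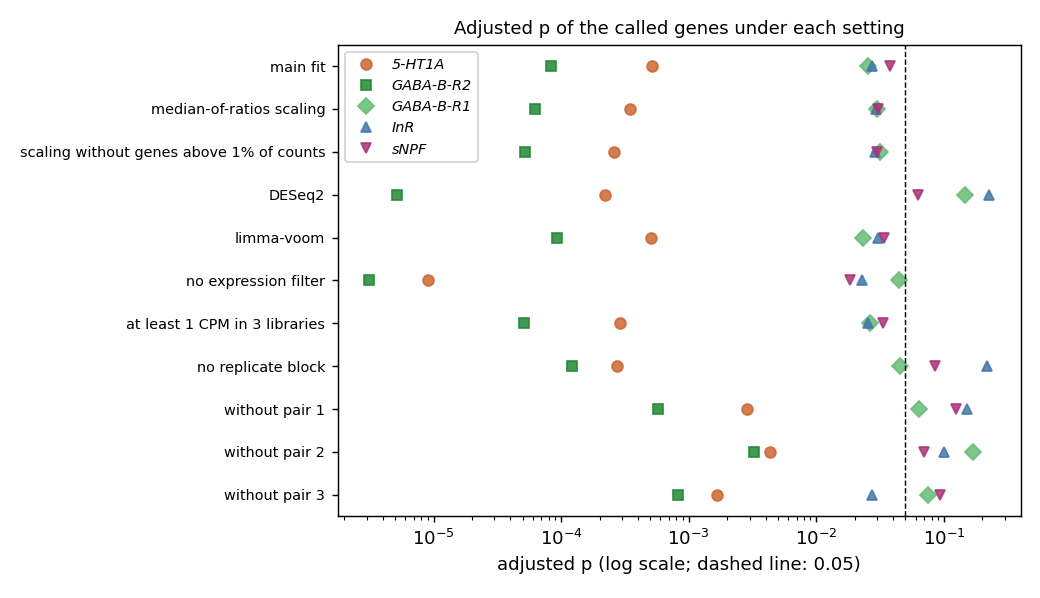
Adjusted p (log scale) of the 5 called genes in the reported fit and under 10 alternatives, with a dashed line at 0.05. 5-HT1A and GABA-B-R2 stay left of the line in every row, whereas sNPF, GABA-B-R1 and InR cross it, sNPF in 5 rows and the other genes in 4 rows each.

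The other genes of the same pathways were counted in 11 lists. Of the 137 genes on these lists beyond the 10 described above, 106 were tested, of which 35 were higher and 13 lower, and 58 did not pass (edgeR). Over all tested genes 14.3% were called higher and 13.3% lower. The median log2 fold change over the 106 was 0.10. Of the 48 calls, 24 held under all alternatives that gave a value.

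Of 4 tested serotonin receptor and transport genes, 2 rose and 2 did not pass (median log2 fold change 0.29). 5-HT2B rose from 66.2 ± 0.452 to 93.0 ± 2.63 CPM (log2 fold change 0.49, edgeR adjusted p = 2.55e-05). 5-HT2A rose from 12 counts over the control libraries to 55 over the PCD-blocked libraries, which DESeq2 left uncalled (adjusted p = 0.0724). The values of 5-HT7 and of the serotonin transporter gene SerT were -0.43 and 0.09, neither of which passed. Of 7 tested octopamine and tyramine receptor genes, 2 rose (median 0.26): Octbeta1R went from 103 ± 3.37 to 143 ± 2.52 CPM and Octbeta3R from 83.6 ± 2.22 to 100.1 ± 2.71 CPM. Both encode receptors of the beta class, which raise cyclic AMP, and the other gene of that class, Octbeta2R, did not pass (log2 fold change -0.11).

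All 4 dopamine receptor genes rose (median 0.49). Dop2R, an inhibitory dopamine receptor, had 21, 39 and 25 counts in controls and 319, 360 and 383 counts in PCD-blocked libraries, or 1.64 ± 0.549 and 20.9 ± 0.594 CPM (log2 change 3.67, SE 0.15, edgeR adjusted p = 1.56e-06). Dop1R2 rose by 0.75, Dop1R1 by 0.24 and DopEcR, which also responds to ecdysone, by 0.13 from 429 ± 10.2 CPM. DESeq2 did not call Dop1R2 (adjusted p = 0.0655) or Dop1R1 (0.352). Dop1R1 was also lost without pair 1 (edgeR adjusted p = 0.0904) and pair 2 (0.0960), and DopEcR without pair 2 (0.132) and pair 3 (0.0546).

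Among 7 tested genes of amine synthesis and transport, 1 rose and 2 fell (median 0.16). Hn, which encodes phenylalanine hydroxylase, fell by 0.45, and ple, which encodes tyrosine hydroxylase, fell by 0.19, a call lost without pair 2 (edgeR adjusted p = 0.102). Tbh, which makes octopamine from tyramine, rose by 0.67 at 3.55 CPM or less in group mean, and its call was lost with any pair left out (adjusted p of 0.0604 to 0.191) and with DESeq2 (0.370). The neuronal tryptophan hydroxylase gene Trhn had 3 counts over all libraries and Tdc2, the neuronal tyrosine decarboxylase gene, had 1.

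On the side of GABA, 1 of 5 tested genes rose and 1 fell (median 0.23). Rdl, the ionotropic GABA receptor subunit, rose from 250.1 ± 14.3 to 292 ± 6.86 CPM (log2 change 0.23, SE 0.03), and Gat, the GABA transporter, fell from 74.7 ± 5.28 to 55.0 ± 2.73 CPM (-0.44 ± 0.04 SE). GABA-B-R3 had 4.92 CPM in controls and a log2 fold change of -0.14, which did not pass. Gad1, which makes GABA, had 1 count over all libraries.

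Of 5 tested genes of muscarinic signalling and acetylcholine supply 2 rose (median 0.11). Acetylcholinesterase (Ace) rose from 443 ± 4.58 to 539 ± 19.9 CPM. The vesicular transporter gene VAChT rose by 0.14 and shares exon bases with ChAT on its strand, and its call was lost without pair 1 (edgeR adjusted p = 0.115) and pair 3 (0.181), without the block (0.109) and with DESeq2 (0.0852). Another muscarinic receptor gene, mAChR-B, had a value of -0.05 and did not pass.

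Of 24 tested neuropeptide receptor genes 9 rose and 2 fell (median 0.25). The 4 with the smallest p rose: AkhR, the adipokinetic hormone receptor, from 0.366 ± 0.297 to 4.64 ± 0.332 CPM, Dh31-R from 12.3 ± 1.59 to 21.2 ± 1.87 CPM, TkR86C as given above, and SPR, the sex peptide receptor, from 2.81 ± 0.658 to 7.75 ± 1.09 CPM. SPR has exons opposite those of frma. Of 8 tested neuropeptide genes beyond sNPF, 4 rose and 2 fell (median 0.03). CCAP rose by 2.77, Proc by 1.12 and ITP by 0.19, while CCHa2 fell by 1.07, and CCAP and ITP have exons opposite those of other genes. Counts over the control libraries were low for CCAP (25, against 170 over the PCD-blocked libraries), Proc (102, against 216) and AkhR (19, against 235). In CPM per kb in controls, ITP had 33.9, against 141 for sNPF.

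Peptides such as sNPF are cut from precursors by convertases, amidated and released from dense core vesicles. Of 8 genes for these steps 2 rose and 2 fell (median 0.004). Cadps, which acts in dense core vesicle release, rose by 0.29 from 431 ± 5.91 CPM. The convertase gene amon rose by 0.12, and the furin gene Fur2 and the amidating lyase gene Pal1 fell by 0.15 and 0.17. Those 3 small changes were lost without pair 2 (edgeR adjusted p = 0.131, 0.116 and 0.136) and without pair 3 (0.0816, 0.0527 and 0.115), and those of amon and Pal1 also with DESeq2 (0.268 and 0.420). For amon the call was lost without pair 1 as well (0.0802). Pal1 has exons opposite those of CG1418 and Pdrg1.

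**Figure D5:**
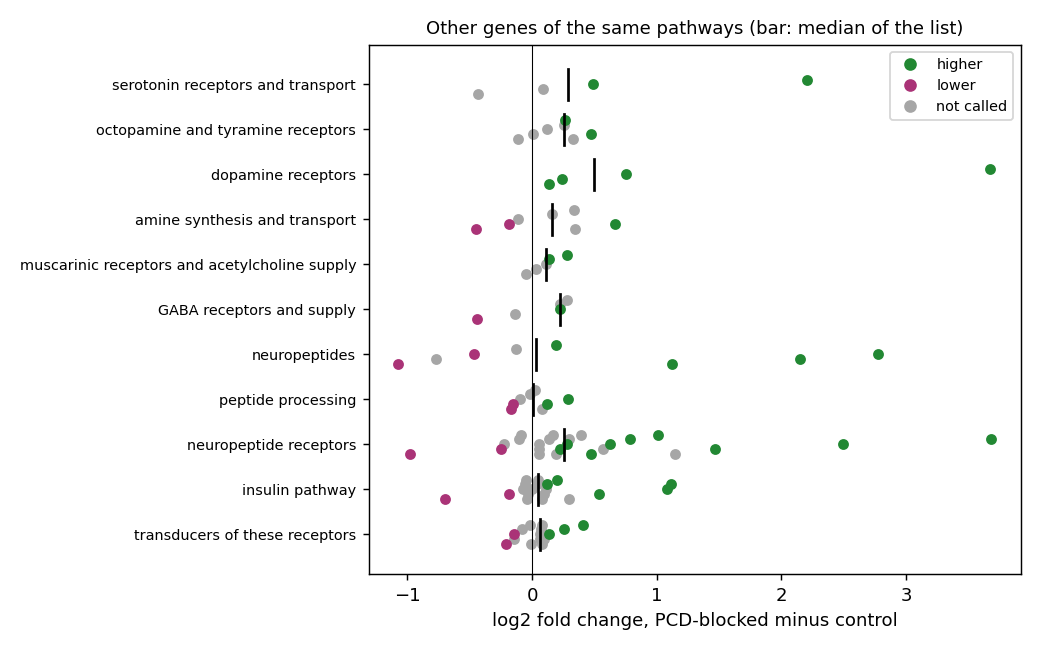
Log2 fold change, PCD-blocked minus control, of each tested gene on the 11 pathway lists without the 10 genes described above; green points were called higher, purple points lower and grey points not called, and a bar marks the list's median. Dop2R at 3.67 and AkhR at 3.68 lie farthest to the right, and the 4 dopamine receptor points are all green.

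Of 19 tested genes of the insulin pathway beyond InR, 5 rose and 2 fell (median 0.05). The 3 genes with the smallest p encode secreted regulators of the pathway and a ligand. ImpL2, a secreted protein that binds insulin-like peptides, rose from 206 ± 12.0 to 445 ± 6.07 CPM (log2 change 1.11, SE 0.04, edgeR adjusted p = 9.25e-07). It shares exon bases with CG46460 on its strand. Sdr, a secreted decoy of the receptor, rose by 0.53 from 38.3 ± 0.807 CPM, and the insulin-like peptide gene Ilp6 fell from 13.3 ± 0.112 to 8.23 ± 0.527 CPM. Thor, the 4E-BP gene and a target of the transcription factor FOXO, rose from 4.21 ± 1.49 to 8.77 ± 1.73 CPM. Of the intracellular genes of the pathway, S6k, a kinase downstream of TOR, rose by 0.20, the TOR kinase gene mTor fell by 0.18, and gig, which encodes a TOR inhibitor, rose by 0.12. DESeq2 called none of these 3 (adjusted p = 0.104, 0.0747 and 0.463). The mTor call was also lost without pair 2 (edgeR adjusted p = 0.0915) and pair 3 (0.110). The gig call was lost in 9 of the 10 alternatives. These included the other scalings (edgeR adjusted p = 0.0551 and 0.0567) and no block (0.0922). They also included each pair left out (0.224, 0.171 and 0.0609 without pairs 1, 2 and 3), and the gig value was 0.08 without pair 1. The relay genes chico (0.05), Pi3K92E (-0.04), Akt (-0.05) and foxo (-0.05) did not pass.

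Of 15 transducer genes for these receptors, 3 rose and 2 fell (median 0.07). Galphao, an inhibitory G protein subunit abundant in neurons, rose from 245 ± 7.58 to 293 ± 3.08 CPM (log2 change 0.26, SE 0.03). Galphai fell by 0.15, a call lost without pair 1 (edgeR adjusted p = 0.0733) and pair 3 (0.151), without the block (0.0908) and with DESeq2 (0.331). The potassium channel gene Irk2 rose by 0.41, or by 0.27 without pair 2, a call lost without the block (0.0847), and Itpr, the calcium release channel gene, fell by 0.21, a call lost without pair 2 (0.127) and pair 3 (0.0603). The calcium channel gene cac had a value of 0.07 and did not pass.

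The genes whose levels over the 6 libraries were most like those of GABA-B-R2 were Jupiter, CG9864 and ND-13B, each with a Pearson correlation of log2 CPM above 0.998. The control and PCD-blocked libraries form separate clusters for GABA-B-R2, so genes chosen for likeness to it differ between groups by that choice. The log2 fold changes of these 3 genes were 0.31, 0.49 and 0.28. The genes most like sNPF were CG13896 (0.993), Vps29 (0.991) and red (0.990), none of which passed the test between groups. These correlations are descriptions over 6 libraries that share their depth and pairing.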

How the data were processed

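The deposited values are read counts per gene, whole numbers in one file per library; the authors' pooling of antennae preceded sequencing. Per the labels' protocols, a TRIzol extraction was followed by poly(A) selection and a directional library kit. The submitters' processing notes list the BDGP6 build with HTSeq 0.9.1, STAR 2.5.3a and cutadapt 1.8, while annotation release and strand setting were not given in the sources used here. The 5 rows that name no gene took 11.9% to 13.5% of each library and stayed out of totals and tests. Of the 17698 gene identifiers, 17560 had a symbol in the reference table. Coordinates and exon lengths (union of all exons) come from an Ensembl annotation of BDGP6, counted from 1.

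Libraries within a group varied beyond sampling noise (chi-square over its degrees of freedom, 4.12 to 10.6), so each counted as 1 sample. The edgeR 4.0.16 quasi-likelihood test in R 4.3.3 used TMM scaling and the default filter by group, which kept 9181 genes with 99.95% of gene counts. The sample pair was a block because the series design calls the design paired. Deviations from group means correlated by 0.06, 0.24 and -0.20 within pairs 1, 2 and 3, so the data themselves do not show the pairing. The p-values were adjusted by Benjamini-Hochberg over all tested genes with a threshold of 0.05. The blocked fit left 2 residual degrees of freedom, so the test estimated each gene's variance partly from other genes. Standard errors were obtained by dividing the log2 fold change by the root of the F statistic. The differences within pairs use log2(CPM + 0.1). Alternatives were DESeq2 1.42.0, limma-voom (limma 3.58.1), other scalings and filters, no block, and each pair left out; a library was left out with its partner because the pair was a block. The ratio test used SciPy 1.17.1.

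The 10 genes, the lists and the tests were chosen with earlier results of these data known. Named genes were the 10, up to 4 called genes of smallest p per pathway list, the 3 genes most correlated with the gene of smallest p and with the most abundant one, and partners that share exon bases. 5-HT7, SerT, Trhn, Tdc2, GABA-B-R3, Gad1, Octbeta2R, mAChR-B, Tk, cac, S6k, mTor, gig, chico, Pi3K92E, Akt and foxo were named after their values were seen. All p-values reflect variation among pools of flies. No sequences are shown.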

Additional observations from a re-analysis of the deposited data

How the results depend on the processing

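Calls for 5-HT1A and GABA-B-R2 kept their direction and passed in all 10 alternatives (log2 fold changes of 0.88 to 1.18 and 0.34 to 0.36). GABA-B-R1 and InR passed in 6 and sNPF in 5 alternatives, and none of the 3 changed direction. sNPF-R, Oamb and mAChR-A passed in none and kept their direction. 5-HT1B reversed without pair 2 (log2 fold change 0.0317), in a range of -0.61 to 0.0317 with 1 pair left out.

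DESeq2 called 653 genes higher and 662 lower over the whole table, 2 higher and 0 lower among the 10 genes, and 21 higher and 8 lower on the pathway lists. With 1 pair left out, 753 to 1065 genes were called higher and 728 to 1006 lower; among the 10 genes 2 to 3 were higher and 0 lower, and on the pathway lists 25 to 32 were higher and 7 to 11 lower. With no replicate block the pairing was dropped, 3 of the 10 genes were called, and 0 were lower. Where 0 were lower, sNPF had an unadjusted p under 0.05 in each case, so 1 of the 10 genes was lower by that measure. The cause of these shifts was not tested, and leaving a pair out also leaves fewer samples. Depth limits 5-HT1B and TkR99D: the former rests on 12 to 26 counts per library and the latter on at most 3. Intervals on fold changes cover the spread between libraries as estimated partly from other genes. The detection limit of 3 counts covers counting error only.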
